A study of Homo sapiens with 6 samples.

Results

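Transcripts of glycolysis and of the cellular response to low oxygen were examined in LM3 cells, an established human HCC (hepatocellular carcinoma) cell line, with and without depletion of ZNF706, a C2H2-type zinc finger protein. The set was chosen by gene symbol and holds 38 genes of the 33007 in the deposited expression table, each with a single row there. All 38 passed the filter on low counts, as did 18390 genes in all. They comprise 4 glucose and lactate transporters, 11 genes of upper glycolysis, 6 of lower glycolysis, 3 that act on the fate of pyruvate, 6 that encode or control the hypoxia-inducible factors (HIF), and 8 further targets of the hypoxia response. RNA-seq had been done on 3 samples of vector control cells and 3 samples of cells with stable ZNF706 knockdown, and both groups carry the genotype label WT. Knockdown cells were made with shRNA in the lentiviral pLKO.1 vector and kept by puromycin selection. Which shRNA was sequenced, whether a group is a pool or a clone, and the oxygen level during culture are not given in the sources used here. Nothing in the labels says that the 3 samples of a group were separate cultures, so p-values measure the spread between these samples, which may be technical.

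Glycolysis breaks glucose down to pyruvate in the cytosol and yields ATP without oxygen. Many tumour cells run it at a high rate even when oxygen is present, turn pyruvate into lactate through lactate dehydrogenase and export the lactate together with protons. HCC cells commonly express hexokinase 2, aldolase A and pyruvate kinase M in place of the forms typical of liver. HIF couples the pathway to oxygen. Its alpha subunits, HIF-1alpha and HIF-2alpha, are hydroxylated by EGLN enzymes in the presence of oxygen, recognised by the VHL protein and degraded. When oxygen is low they are stabilised, pair with ARNT (HIF-1beta) and activate genes for glucose uptake, glycolysis, angiogenesis and mitophagy. Since HIF activity is set mainly through protein stability, the RNA of its subunits is not a measure of it.

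ZNF706, the targeted gene (ENSG00000120963), had CPM values of 51.9, 55.1 and 54.7 in control and 33.5, 30.8 and 32.8 in knockdown cells. CPM denotes counts scaled to library size after TMM scaling, which adjusts each library for its composition. Every knockdown sample was below every control sample, with a log2 fold change of -0.73 (SE 0.050, adjusted p = 3.695e-05 by the quasi-likelihood test of edgeR, adjusted after Benjamini and Hochberg over 18390 genes). The library totals were 62684076, 64713764 and 63054445 counts in the control group and 68548419, 65861994 and 69057423 in the knockdown group. Because each knockdown library was the deeper one, depth and knockdown cannot be told apart by these samples alone. Counts on mitochondrially encoded genes took 5.40%, 5.19% and 5.40% of the control libraries and 5.03%, 5.02% and 4.79% of the knockdown libraries, with no overlap, and their part in the results below was not tested. In bulk RNA, fewer cells that express a gene and less of its RNA per cell cannot be told apart.

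The liver identity of the line was weak at the RNA level. KRT18 and KRT8, keratins of simple epithelium, were abundant, with control means of 271 and 193 FPKM. FPKM denotes fragments scaled to library size and gene length. Other markers of simple epithelium were low, with control means of 0.463 FPKM for KRT19, 0.293 for CDH1 and 0.127 for EPCAM. The defining hepatocyte genes were low, at 2.63 FPKM for ALB, 0.787 for AFP and 0.133 for HNF4A. Summed over 18 hepatocyte and hepatoma markers, the level was 8.42, 14.1 and 16.6 FPKM in control and 7.65, 7.54 and 6.53 FPKM in knockdown cells. FOXA1 and ALB were its most abundant genes in the knockdown and control groups, respectively. All 17 markers tested had a negative sign, as did 8948 of the 18390 genes tested. Of the 17, 3 (17.6%) were lower and none was higher, beside 12.4% lower and 10.4% higher among all genes tested. The 3 were SERPINA1 (log2 fold change -1.47, adjusted p = 0.003356, edgeR), APOB (-0.98, adjusted p = 0.02055, edgeR) and APOH (-2.32, adjusted p = 0.01744, edgeR). For 5 of the 17 every knockdown sample was below every control, as for 19.7% of all genes tested, and for 12 the groups overlapped. ALB was among the 12, with 3.05 CPM in control replicate 1 and 1.97 CPM in knockdown replicate 3. The other samples had 8.37 to 14.4 CPM of ALB. SLC2A3, SLC16A1, PFKM, ALDOC and EPAS1, the steadiest calls described below, were made without control replicate 1 and without knockdown replicate 3 as well. Of 5 leukocyte markers the expression table held 4 and lacked CD3E. Those 4 summed to at most 0.89 FPKM in any sample, with PTPRC at 0.00667 FPKM in the control mean. The 6 fibroblast markers summed to 9.41, 7.90 and 8.33 FPKM in control and 9.85, 10.05 and 9.61 FPKM in knockdown cells, most of it COL1A1, and 2 of 5 tested were higher, COL1A1 (log2 fold change 0.20, adjusted p = 0.002311, edgeR) and PDGFRB (0.68, adjusted p = 0.002974, edgeR). COL1A2, COL3A1, DCN and LUM had control means under 0.5 FPKM. The endothelial markers summed to 1.79, 1.91 and 2.06 FPKM in control and 1.43, 1.61 and 1.69 FPKM in knockdown cells, where CDH5, the most abundant in control, was lower (-0.70, adjusted p = 0.001354, edgeR). The part of these markers in the results below was not tested.

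Knockdown of ZNF706 was accompanied by changes in a minority of the set, in both directions. At an adjusted p below 0.05, 5 genes were higher (ALDOC, PFKM, EGLN3, GPI and GAPDH), 6 were lower (SLC2A3, SLC16A1, PDK1, EPAS1, VHL and NDRG1) and 27 were not called. These are 13.2% higher and 15.8% lower, beside 10.4% higher and 12.4% lower among all genes tested. Most of the set was abundant, with 32 genes at a control mean of at least 10 FPKM. Among all 4099 genes at that level, 11.8% were higher and 29.8% were lower. The lower share of the set was thus near that of all genes and below that of abundant genes. No test of the list was made. The median log2 fold change was -0.026 over the 38 genes and 0.0095 over all genes tested. Scaling by library size alone put that median at 0.027, so its sign rests on the scaling. The same change moved the calls to 10 higher and 3 lower in the set, adding PFKL, TPI1, ENO1, LDHA and ADM to the higher ones, and from 1906 higher and 2286 lower to 2742 higher and 1518 lower over all genes, where the higher share of the calls went from 45.5% to 64.4%. Values of the control and knockdown samples did not overlap for 20 genes of the set, 9 with knockdown above and 11 with knockdown below, beside 19.7% of all genes in each direction. With the criteria in the study's methods, a p below 0.05 (taken as unadjusted) with a log2 fold change of 0.3 or more in either direction, only ALDOC and PFKM were higher and SLC2A3 was lower, while 9.61% of all genes were higher and 5.88% lower. Calls of SLC2A3, SLC16A1, PFKM, ALDOC and EPAS1 were made in each of the 15 other fits across genes. The other six calls were made in some of them, from 4 for EGLN3 to 13 for VHL.

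**Figure D1:**
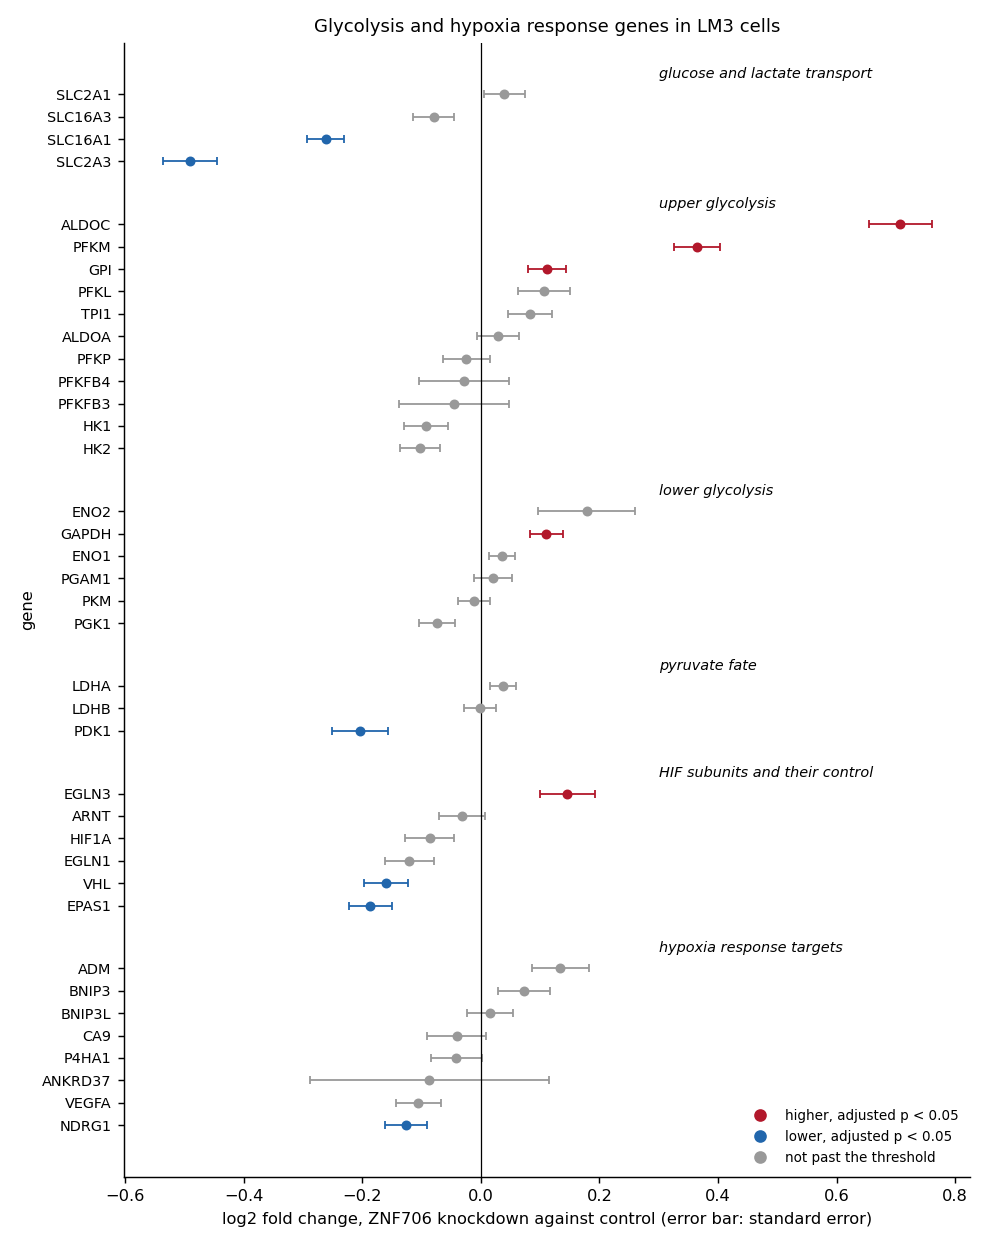
Log2 fold change of each of the 38 genes, ZNF706 knockdown against control, with its standard error and ordered within 6 role groups (red, higher; blue, lower; grey, not past an adjusted p of 0.05). ALDOC at 0.71 and SLC2A3 at -0.49 stand farthest from 0, and most of the other genes lie near 0.

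Most of the set was abundant. In control cells 9 of the 38 genes exceeded 100 FPKM, all of them enzymes of glycolysis or lactate dehydrogenases, and 32 exceeded 10 FPKM. GAPDH led with 2175 FPKM, followed by ENO1 (730), LDHA (506), LDHB (450.5), TPI1 (425), PKM (331), ALDOA (291), PGAM1 (207) and PGK1 (199). Among all 302 genes above 100 FPKM, 5.3% were higher and 31.5% were lower after knockdown. The 15 enzymes from hexokinase to pyruvate kinase summed to 4467, 4591 and 4505 FPKM in control and 4765, 4928 and 5030 FPKM in knockdown cells. On this scale, which corrects for library size and not for composition, the groups did not overlap. On the TMM scale the summed CPM of the 38 genes was 27800, 28626 and 28507 in control and 28276, 28783 and 29350 in knockdown cells, and the groups overlapped. These sums differ in the genes they cover and in length weighting as well as in scaling.

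**Figure D2:**
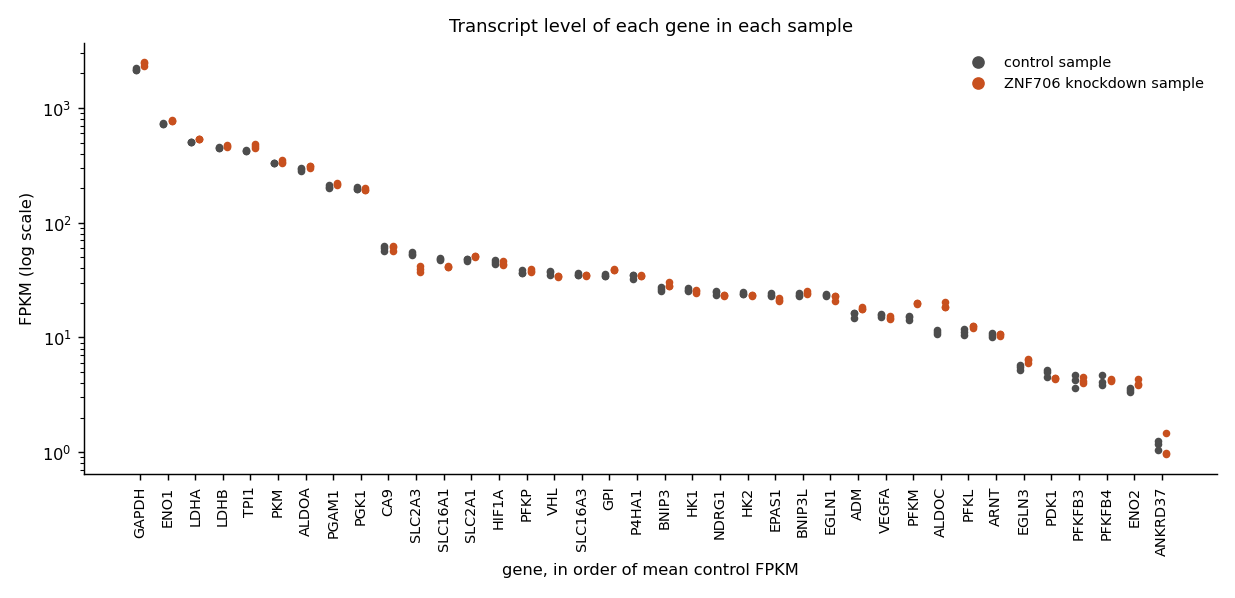
FPKM of each gene in each of the 6 samples on a log axis, ordered by the control mean. Glycolytic enzymes and both lactate dehydrogenases fill the first 9 places, from GAPDH at 2175 FPKM to PGK1 at 199 FPKM, and visible gaps between the groups are few, with SLC2A3, PFKM and ALDOC the clearest.

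Set side by side are a strong rise (ALDOC) and a rise without a hypoxia motif in the window read (PFKM). LDHA and BNIP3 are a pair of classical HIF targets that were not called in the reported fit. Promoter sequences of these 4 genes, chosen after their values were seen, are shown. Each is the 250 bases before the gene start in RefSeq (GRCh38.p14), 5′ to 3′ on the gene's strand. Capitals mark each match to the core of the hypoxia response element, searched as ACGTG or GCGTG on both strands. The E-box CACGTG, bound by MYC and other helix-loop-helix factors, holds an ACGTG on each strand and so counts as 2 matches. The windows lie at chr17:28576896-28577145 on the minus strand for ALDOC, chr12:48105623-48105872 on the plus strand for PFKM, chr11:18394313-18394562 on the plus strand for LDHA and chr10:131981924-131982173 on the minus strand for BNIP3.
ALDOC: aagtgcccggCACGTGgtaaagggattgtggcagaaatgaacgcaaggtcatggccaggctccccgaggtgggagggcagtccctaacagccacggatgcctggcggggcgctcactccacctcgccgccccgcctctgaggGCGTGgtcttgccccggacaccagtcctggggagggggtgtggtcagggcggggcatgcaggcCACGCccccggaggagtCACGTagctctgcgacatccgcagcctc
PFKM: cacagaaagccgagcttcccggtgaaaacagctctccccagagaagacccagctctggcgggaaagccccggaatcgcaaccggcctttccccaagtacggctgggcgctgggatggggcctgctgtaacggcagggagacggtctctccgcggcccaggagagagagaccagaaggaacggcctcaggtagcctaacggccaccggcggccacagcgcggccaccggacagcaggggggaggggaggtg
LDHA: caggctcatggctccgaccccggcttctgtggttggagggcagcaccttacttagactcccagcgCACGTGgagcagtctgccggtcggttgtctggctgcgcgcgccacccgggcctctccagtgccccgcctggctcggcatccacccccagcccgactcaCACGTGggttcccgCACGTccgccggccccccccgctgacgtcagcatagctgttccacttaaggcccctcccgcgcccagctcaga
BNIP3: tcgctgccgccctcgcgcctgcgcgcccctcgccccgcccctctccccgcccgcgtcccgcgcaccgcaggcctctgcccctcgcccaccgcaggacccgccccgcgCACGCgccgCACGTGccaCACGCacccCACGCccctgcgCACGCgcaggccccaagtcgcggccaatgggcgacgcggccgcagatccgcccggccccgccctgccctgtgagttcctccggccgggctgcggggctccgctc
The ALDOC window holds 5 matches, the LDHA window 5, the BNIP3 window 6 and the PFKM window none. A single promoter entry was read per gene, and other starts were not searched. The PFKM window lies within the gene bounds given below (48105139 to 48146404). Over windows that also include the first 50 bases of the gene, 32 of the 38 genes were found in the promoter table, and 23 of those (71.9%) held at least 1 match, beside 48.4% of all 27305 promoters in it. At least 2 matches were found in 25% of those 32 genes and in 23.3% of all promoters. The E-box was found in ALDOC, GAPDH, LDHA, BNIP3 and ANKRD37, or 15.6% of the 32, beside 7.43% of all promoters. A match is a description of letters and does not show that a factor binds there.

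Of the 4 glucose and lactate carriers, 2 were lower in knockdown cells, none was higher and 2 were not called. SLC2A3 (GLUT3, ENSG00000059804, chromosome 12, 7919230 to 7936187, minus strand), a high-affinity glucose transporter, had 371, 388 and 374 CPM in control and 253, 267 and 286 CPM in knockdown cells. All knockdown samples lay well below all controls, and the level fell by 28.9% (log2 fold change -0.49, SE 0.045, adjusted p = 0.0001282, edgeR). SLC16A1 (MCT1, ENSG00000155380, chromosome 1, 112911847 to 112956196, minus strand), a proton-coupled carrier of lactate and pyruvate, had 288, 284 and 295 CPM in control and 245, 239 and 239 CPM in knockdown cells. Its samples formed tight, separate groups, with a log2 fold change of -0.26 (SE 0.032, adjusted p = 0.0004908, edgeR). SLC2A1 (GLUT1), the main glucose transporter of many tumours, had 351, 374 and 372 CPM in control and 370, 378 and 378 CPM in knockdown cells. The groups overlapped, and its log2 fold change of 0.040 (SE 0.034, adjusted p = 0.4678, edgeR) did not pass. SLC16A3 (MCT4), the lactate exporter of highly glycolytic cells, ranged from 360 to 385 CPM in control and from 345 to 353 CPM in knockdown cells. Its log2 fold change was -0.080 (adjusted p = 0.1303, edgeR). With the trend on GC content removed it was -0.16 and past the threshold (adjusted p = 0.007972, edgeR). CSNK1D overlaps SLC16A3 on the opposite strand with 24.4% as many counts, and reads of both genes could not be told apart if strand was not used in counting, which the sources used here do not give.

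In upper glycolysis, which spends ATP to convert glucose to triose phosphates, 3 of 11 genes were higher, none was lower and 8 were not called. ALDOC (aldolase C, ENSG00000109107, chromosome 17, 28573115 to 28576948, minus strand), which splits a hexose bisphosphate into triose phosphates and is best known from brain, had 35.2, 33.9 and 33.1 CPM in control and 54.0, 53.5 and 59.3 CPM in knockdown cells. This rise of 63.3% was the largest change in the set (log2 fold change 0.71, SE 0.053, adjusted p = 5.174e-05, edgeR). PFKM (the muscle type of phosphofructokinase, ENSG00000152556, chromosome 12, 48105139 to 48146404, plus strand), which catalyses the committed step, had 125, 130 and 119 CPM in control and 162, 158 and 162 CPM in knockdown cells. Its knockdown samples were nearly equal and all above the controls, a rise of 28.7% (log2 fold change 0.36, SE 0.039, adjusted p = 0.0002766, edgeR). PFKM overlaps SENP1 on the opposite strand over 941 bases, and summed SENP1 counts went from 15607 to 14403 between the groups while those of PFKM went from 23338 to 33305. GPI (glucose-6-phosphate isomerase, ENSG00000105220, chromosome 19, 34359480 to 34402413, plus strand) had 422, 447 and 425 CPM in control and 465, 470 and 463 CPM in knockdown cells, a log2 fold change of 0.11 (SE 0.032, adjusted p = 0.03375, edgeR). Its groups did not overlap, but the call was lost when any of 5 samples was left out (adjusted p = 0.05439 to 0.1262, edgeR) and was kept only without control replicate 2.

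The remaining genes of upper glycolysis did not pass. HK2 (hexokinase 2), which traps glucose in the cell and is induced in many tumours, had 162, 170 and 165 CPM in control and 155, 156 and 153 CPM in knockdown cells. Knockdown values were all below the controls by a small step, with a log2 fold change of -0.10 (SE 0.034) and an adjusted p of 0.05243 by edgeR, just outside the threshold. DESeq2 put the same gene just inside it (adjusted p = 0.04334). HK1 (hexokinase 1) had a log2 fold change of -0.093, with its groups apart (adjusted p = 0.1082, edgeR). PFKL, the liver type of phosphofructokinase, was at 0.11 (adjusted p = 0.1152, edgeR) and TPI1 (triosephosphate isomerase) at 0.083 (adjusted p = 0.1404, edgeR). ALDOA (aldolase A), PFKP (the platelet type of phosphofructokinase), PFKFB3 and PFKFB4 had log2 fold changes between -0.045 and 0.029, all with overlapping groups. PFKFB3 and PFKFB4 make or remove the sugar bisphosphate that activates phosphofructokinase allosterically.

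**Figure D3:**
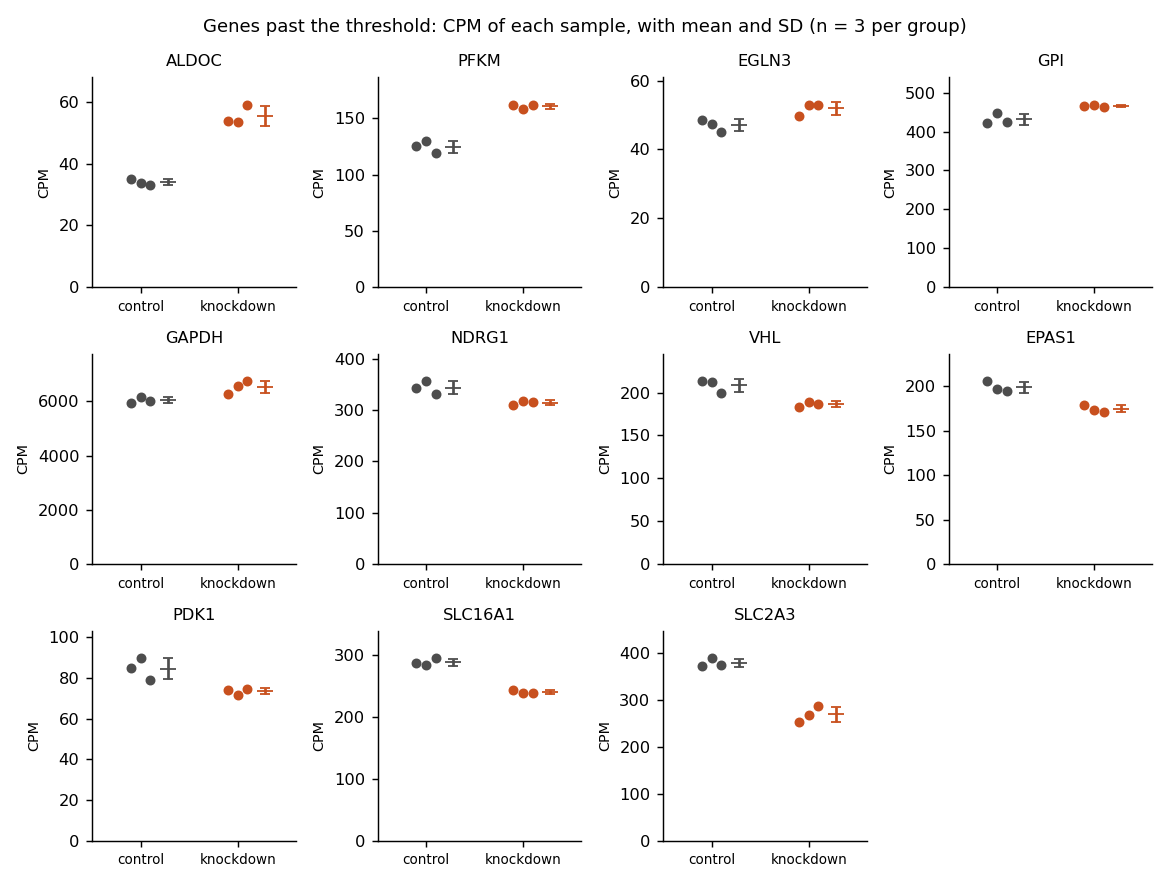
CPM of the 11 genes past the threshold in each sample, with the group mean and SD (n = 3 per group) and axes from 0. The groups do not overlap in any panel, and the distance between them is wide for ALDOC, PFKM and SLC2A3 and a small part of the level for GPI, GAPDH, EGLN3 and NDRG1.

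Lower glycolysis, in which ATP and NADH are gained, held 1 gene that was higher, GAPDH, none that was lower and 5 that were not called. GAPDH (glyceraldehyde-3-phosphate dehydrogenase, ENSG00000111640, chromosome 12, 6534512 to 6538371, plus strand) had 5937, 6164 and 6027 CPM in control and 6277, 6556 and 6734 CPM in knockdown cells. It was thus 7.94% higher in cells depleted of ZNF706 (log2 fold change 0.11, SE 0.028, adjusted p = 0.01943, edgeR). Without control replicate 1, control replicate 3, knockdown replicate 2 or knockdown replicate 3 the adjusted p was 0.05216 to 0.09202 by edgeR, and with the trend on GC content removed the log2 fold change was 0.043 (adjusted p = 0.3373, edgeR). GAPDH is a common reference gene in qRT-PCR, but the study's own qRT-PCR used β-actin. ENO2, the neuronal enolase, was at 0.18 (SE 0.081, adjusted p = 0.152, edgeR) with groups apart at a low level of 16.6 to 21.1 CPM. ENO1 (0.035), PGAM1 (0.021), PKM (-0.011) and PGK1 (-0.074), abundant enzymes of the steps down to pyruvate, had adjusted p-values from 0.1116 to 0.8206 by edgeR.

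At the fate of pyruvate, the lactate dehydrogenases were not called and PDK1 was lower. LDHA, the muscle-type subunit that favours lactate formation, had 3479, 3568 and 3576 CPM in control and 3640, 3623 and 3640 CPM in knockdown cells. The knockdown samples were above the controls by little, and the log2 fold change of 0.038 (SE 0.022, adjusted p = 0.2593, edgeR) did not pass. It was called higher in 3 of 15 other fits, at 0.092 (adjusted p = 0.009774, edgeR) with library size alone, 0.090 (adjusted p = 0.0125, edgeR) with the GC trend removed and 0.086 (adjusted p = 0.04966) with limma on FPKM. LDHB, the heart-type subunit, had a log2 fold change of -0.0013 (SE 0.027) with overlapping groups. PDK1 (pyruvate dehydrogenase kinase 1, ENSG00000152256, chromosome 2, 172555373 to 172599137, plus strand), a HIF target that shuts pyruvate out of the citrate cycle by phosphorylating pyruvate dehydrogenase, had 85, 89.6 and 79.1 CPM in control and 74.3, 71.6 and 74.4 CPM in knockdown cells. The lowest control was still above every knockdown sample, and the log2 fold change was -0.20 (SE 0.048, adjusted p = 0.013, edgeR). The value was -0.15 (adjusted p = 0.05481, edgeR) with scaling by library size alone and -0.097 (adjusted p = 0.226, edgeR) with the GC trend removed, and the call was also lost without knockdown replicate 2 (adjusted p = 0.06725, edgeR).

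Among the HIF subunits and their control, 1 of 6 genes was higher and 2 were lower. EPAS1 (HIF-2alpha, ENSG00000116016, chromosome 2, 46293667 to 46386696, plus strand) had 206, 197 and 195 CPM in control and 179, 174 and 172 CPM in knockdown cells. All knockdown samples were below all controls, and the log2 fold change was -0.19 (SE 0.036, adjusted p = 0.004999, edgeR). HIF1A (HIF-1alpha, ENSG00000100644) had 283, 261 and 274 CPM in control and 268, 252 and 250.1 CPM in knockdown cells, with overlap and a log2 fold change of -0.086 (SE 0.042, adjusted p = 0.1752, edgeR). ARNT, the partner of both, had a log2 fold change of -0.032 (SE 0.039). VHL (ENSG00000134086, chromosome 3, 10141778 to 10153667, plus strand), the substrate receptor of the ubiquitin ligase that marks hydroxylated HIF alpha, had 213, 212 and 200 CPM in control and 183, 189 and 187 CPM in knockdown cells. It was lower by a log2 fold change of -0.16 (SE 0.037, adjusted p = 0.01191, edgeR), which scaling by library size alone reduced to -0.11 (adjusted p = 0.07414, edgeR). EGLN3 (PHD3, ENSG00000129521, chromosome 14, 33924227 to 34222953, minus strand), a prolyl hydroxylase that is itself induced by HIF, had 48.5, 47.4 and 45.1 CPM in control and 49.8, 53.1 and 53.1 CPM in knockdown cells. Its log2 fold change of 0.15 (SE 0.047) passed the threshold narrowly (adjusted p = 0.04941, edgeR) and was past it in 4 of 15 other fits. Among the samples left out in turn, only the fit without knockdown replicate 1 kept it. EGLN1 (PHD2), the main oxygen-dependent regulator of HIF-1alpha, was at -0.12 (SE 0.042, adjusted p = 0.06604, edgeR) with all knockdown samples below the controls.

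Of 8 hypoxia response targets outside glycolysis, NDRG1 was lower and 7 were not called. NDRG1 (ENSG00000104419, chromosome 8, 133237175 to 133302022, minus strand), a stress-responsive gene linked to differentiation and metastasis suppression, had 343, 355 and 331 CPM in control and 309, 318 and 316 CPM in knockdown cells. The log2 fold change was -0.13 (SE 0.035, adjusted p = 0.02764, edgeR), and it was past the threshold in 6 of 15 other fits. Among the samples left out in turn, the call was kept without control replicate 3 alone. VEGFA, the central angiogenic growth factor, had 258, 270 and 252 CPM in control and 236, 240 and 250 CPM in knockdown cells. All knockdown values were below the controls by little, with a log2 fold change of -0.11 (SE 0.038, adjusted p = 0.07456, edgeR). CA9 (carbonic anhydrase IX), a cell-surface enzyme that regulates pH and is used as a hypoxia marker, had 106, 116 and 112 CPM in control and 110.4, 101 and 113 CPM in knockdown cells. It was the most abundant of these targets, at 59.6 FPKM in control, with overlapping groups and a log2 fold change of -0.041 (SE 0.050, adjusted p = 0.6195, edgeR). ADM (adrenomedullin, a vasodilator peptide) was at 0.13 (adjusted p = 0.07728, edgeR), and the mitophagy receptors BNIP3 and BNIP3L were at 0.073 and 0.015. With the GC trend removed BNIP3L was at 0.127 and just past the threshold (adjusted p = 0.04768, edgeR). P4HA1, a collagen prolyl hydroxylase subunit, was at -0.041, and ANKRD37 at -0.087 with an SE of 0.201 on 2.47 to 3.76 CPM. UFSP2, which overlaps ANKRD37 on the opposite strand, had 236% as many counts in the control samples.

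Related enzymes were also compared within each sample, where library scaling plays no part. In 12 pairs, the per-sample log2 ratio of FPKM separated the groups for 9, with the knockdown ratio above in 5 and below in 4. Single genes separated the groups in 19.7% of all genes in each direction. No share over other gene pairs was obtained, so the count cannot be called particular to these pairs. Several pairs hold a gene called above, and PFKL was the reference for both PFKP and PFKM. With 3 samples against 3, a two-sided exact permutation test cannot go below p = 0.1, and these 9 pairs were at that value (adjusted p = 0.133 over the 12). The ratio of SLC2A3 to SLC2A1 crossed from 0.20, 0.18 and 0.13 in control to -0.43, -0.38 and -0.28 in knockdown cells on the log2 scale. GLUT3 transcripts thus went from 53.0% ± 0.62 to 43.8% ± 1.26 (SD, n = 3) of the summed FPKM of these 2 transporters. PFKM went from 23.4% ± 0.481 to 28.2% ± 0.22 (SD, n = 3) of the phosphofructokinase FPKM, and PFKP from 59.0% ± 0.73 to 54.2% ± 0.811. The aldolase pool remained almost all ALDOA, since ALDOC was 3.72% ± 0.274 of it in control and 5.81% ± 0.263 (SD, n = 3) in knockdown cells. SLC16A3 went from 42.4% to 45.5% of the 2 lactate carriers, EGLN3 from 19.1% to 22.1% of the 2 prolyl hydroxylases, and EPAS1 from 34.0% to 32.5% of the 2 HIF alpha subunits. Shares of HK2 and HK1 overlapped between the groups, with HK2 at 48.0% ± 1.46 and 47.9% ± 0.431 (SD, n = 3). LDHB changed by less than 1 point, from 47.1% to 46.4% of lactate dehydrogenase FPKM.

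**Figure D4:**
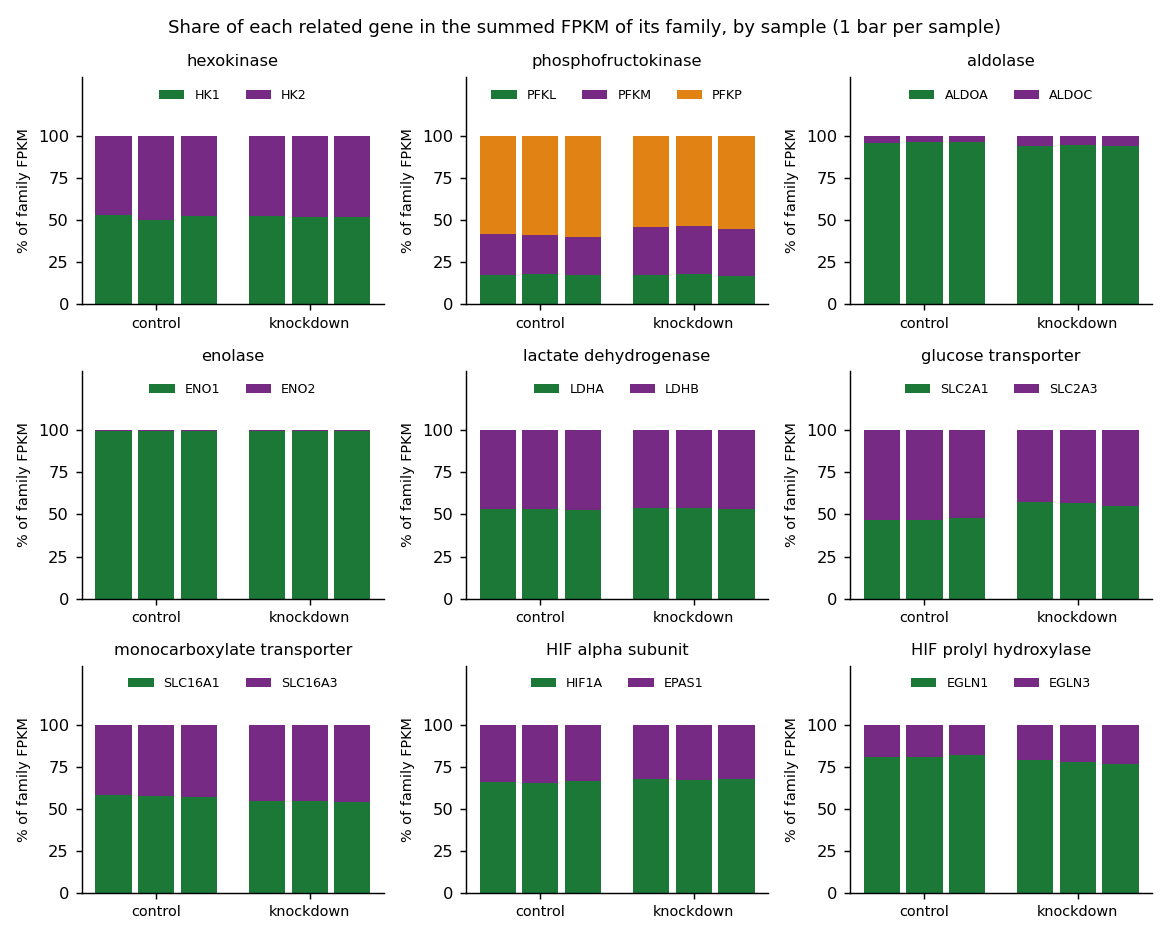
Share of each related gene in the summed FPKM of its family, 1 stacked bar per sample (3 control and 3 knockdown bars in each of 9 families). The boundary moves most in the glucose transporter panel, where SLC2A3 goes from 53.0% to 43.8%, and the bars of hexokinase, enolase and lactate dehydrogenase look alike in the groups.

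The wider pathways were read from 7 further lists with 103 genes, of which 100 were in the table and 82 were tested. Of these 82, 20 (24.4%) were higher and 18 (22%) were lower, beside 10.4% and 12.4% of all genes tested. The 29 tested hypoxia response targets outside the set had 11 higher (37.9%), 8 lower (27.6%) and a median log2 fold change of 0.036. PPP1R3C, which targets protein phosphatase 1 to glycogen, had 22.9, 24.4 and 23.6 CPM in control and 39.8, 37.6 and 39.1 CPM in knockdown cells, a log2 fold change of 0.72 (SE 0.057, adjusted p = 6.749e-05, edgeR). BHLHE41, a transcriptional repressor of the clock, was higher by 0.76 (SE 0.108). ANGPTL4, an inhibitor of lipoprotein lipase, had 54.8, 56.7 and 56.2 CPM in control and 28.2, 25.6 and 32.8 CPM in knockdown cells, a log2 fold change of -0.95 (SE 0.080, adjusted p = 8.079e-05, edgeR). JMJD6, an oxygenase of the JmjC family, was lower by a log2 fold change of -0.52 (SE 0.047), and STC2 (stanniocalcin 2, a secreted glycoprotein) by -0.50 (SE 0.042). Rises and falls thus stood side by side among genes that HIF is known to induce. Under the 15 other fits this list had 10 or 11 genes higher and 7 to 9 lower.

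**Figure D5:**
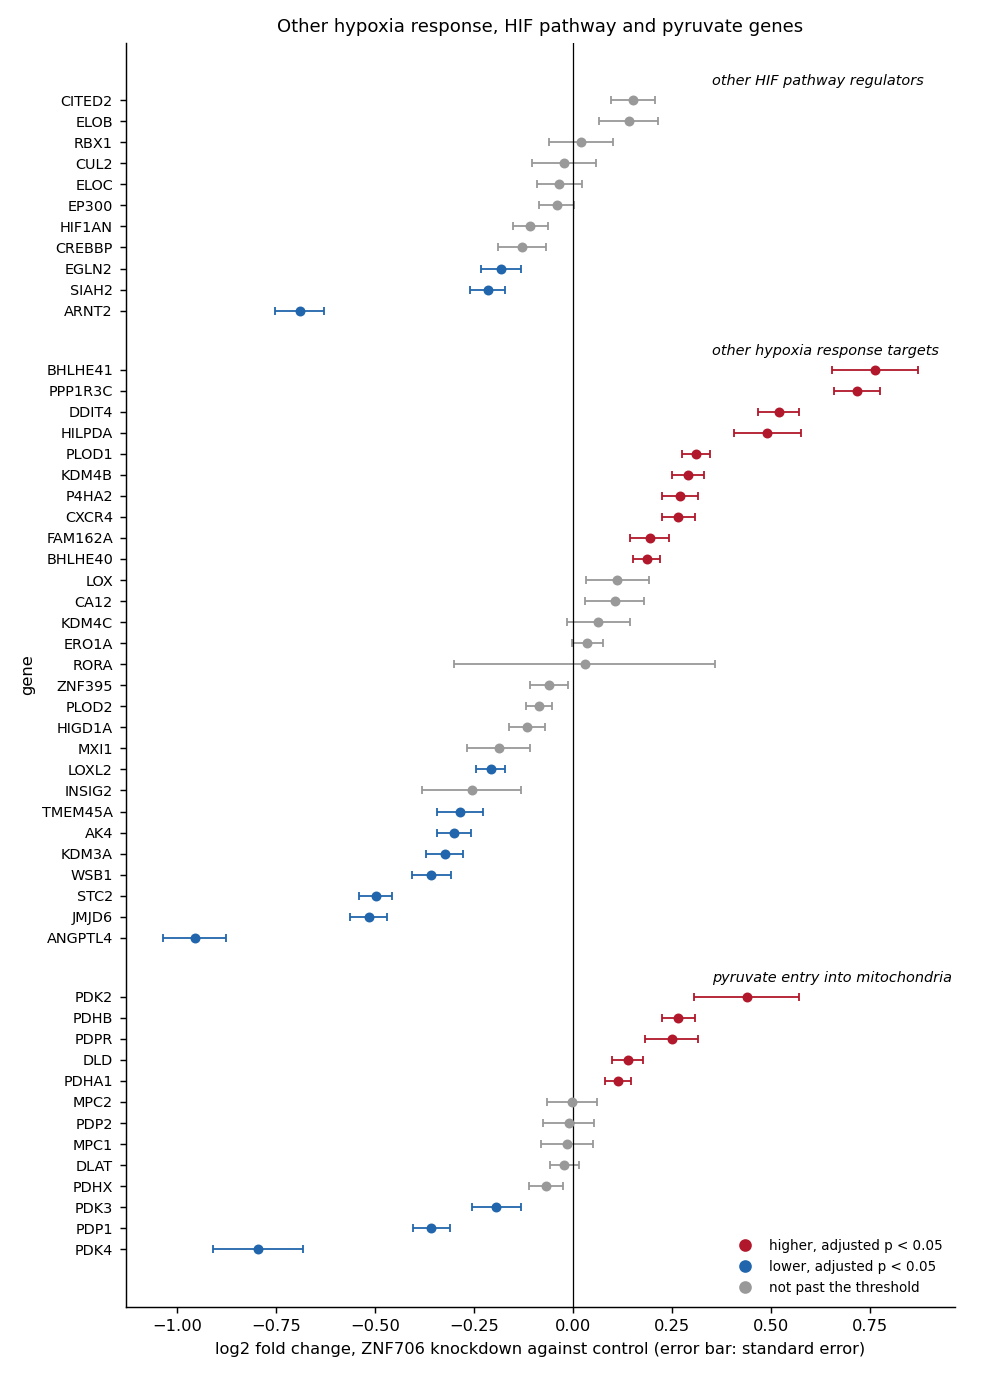
Log2 fold change with standard error for genes of 3 wider lists, namely HIF pathway regulators, other hypoxia response targets and genes of pyruvate entry into mitochondria (red, higher; blue, lower; grey, not past an adjusted p of 0.05). The hypoxia response targets shown reach from -0.95 for ANGPTL4 to 0.76 for BHLHE41, with red and blue points on either side of 0.

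Of 11 tested HIF pathway regulators, none was higher and 3 were lower. ARNT2, an alternative partner of the HIF alpha subunits, had 71.8, 70.9 and 77.7 CPM in control and 44.6, 42.2 and 49.8 CPM in knockdown cells (log2 fold change -0.69, SE 0.063, adjusted p = 0.0001201, edgeR). SIAH2, a ubiquitin ligase for EGLN enzymes, was lower by -0.22 (SE 0.045), and EGLN2 (PHD1) by -0.18 (SE 0.050), the latter in 8 of 15 other fits. Pyruvate entry into mitochondria had 5 of 13 genes higher and 3 lower. PDK4, a pyruvate dehydrogenase kinase known to respond to fasting, had 35.8, 25.2 and 31.4 CPM in control and 17.4, 18.0 and 17.9 CPM in knockdown cells, with a log2 fold change of -0.79 (SE 0.114, adjusted p = 0.001104, edgeR). PDP1, a phosphatase that opposes the kinases, was lower by -0.36 (SE 0.047) and PDK3 by -0.19 (SE 0.062). PDHB, a subunit of the E1 enzyme, was higher by 0.27 (SE 0.041), PDK2 by 0.44 (SE 0.132) and PDPR, a regulator of the phosphatase, by 0.25 (SE 0.066). PDHB, PDK4 and PDP1 were called in all 15 other fits, PDPR in 10, PDK2 in 8 and PDK3 in 4. Leaving out single samples left 1 to 3 higher and 2 or 3 lower in this list, with 1 higher without knockdown replicate 1. The other sugar and lactate carriers had 1 of 6 higher, SLC2A6 (GLUT6) by 0.35 (SE 0.060). PKLR, the liver form of pyruvate kinase, and SLC2A2 (GLUT2), the glucose transporter of hepatocytes, were listed at 0. The other glycolysis enzymes had 1 of 9 higher (PFKFB2, 0.23, called in 9 of 15 other fits) and 1 lower (ADPGK, -0.13, called in 6).

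Copies and neighbours limited some of these values. Another gene with at least 1 count over all samples overlapped 25 of the 38 genes, in some cases with only 1 to 3 counts, and for 6 of them the overlapping gene had at least 10% as many counts, namely SLC16A3, PFKM, PFKFB4, ENO2, CA9 and ANKRD37. Of 55 pseudogenes named after 14 of the genes, only those of TPI1 exceeded 1% of their parent's counts (summed, 2.18% in control and 2.47% in knockdown cells). How reads shared with such copies were assigned is not given in the sources used here.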

How the data were processed

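RNA of LM3 cells (3 control and 3 ZNF706 knockdown samples) was sequenced on the Illumina NovaSeq system. The submitters' processing notes name cutadapt 1.9, FastQC and the GRCh38 build, and the study's methods name HISAT2 for mapping. The counting program, annotation release and strand setting are not given in the sources used here. The authors deposited a table with whole-number counts per gene, without normalization, and FPKM values, which they scaled to gene length and library size. It holds no column of comparisons between groups, and its other columns are annotation.

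Low genes were dropped by filterByExpr, libraries scaled by TMM, and groups compared by glmQLFit and glmQLFTest of edgeR 4.0.16 (R 4.3.3) with the group as the only term. Benjamini-Hochberg adjustment was over the 18390 genes left of 33007, of which 1688 had no count. A gene was called at an adjusted p below 0.05. Standard errors (SE) were obtained as the size of the log2 fold change over the root of its F statistic. Ratios of related genes used FPKM per sample and a two-sided exact permutation test. The fit was tested on simulated data. It called 20% of 50 genes with a true log2 fold change of -0.3 and 32% of 50 at 0.3. At -1 it called 54.3% of 46 and at 1 58% of 50. Of 17639 unchanged genes, 14 were called. A gene not called may thus have changed. Far fewer genes were changed there than were called in the data, so these rates need not hold for the data.

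Replicates differed by more than repeats of 1 library would, with a chi-square per gene over 14132 genes of 12.8 to 15.1 among controls, 12.8 to 22.2 among knockdown samples and 45.9 to 53.9 between groups.

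Every sample value was given for genes of the set that were called and for HIF1A, EPAS1, HK2, LDHA, SLC2A1, VEGFA and CA9. From each wider list, up to 3 genes per direction with the largest change and no overlap were named, and other genes were named after their values were seen. Results for some listed genes are not reported here, though counts over the lists include them. The 38 genes, the lists and the tests were chosen with earlier results of these data known.

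Alternatives were DESeq2 1.42.0, its size factors in edgeR, library size alone, a minimum mean count of 50, no filter, a replicate block, each sample left out, limma 3.58.1 on log2(FPKM + 0.1) for a mean FPKM of at least 1, and the criteria in the study's methods. Removal of each library's loess trend (span 0.3) on GC content or length of the longest GENCODE release 29 transcript was added after seeing the data, with values for 18128 genes and 38 of 38 of the set.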

Additional observations from a re-analysis of the deposited data

How the results depend on the processing

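Of the calls, those of ZNF706, SLC2A3, SLC16A1, PFKM, ALDOC and EPAS1 were made in all 15 other fits. With library size alone 10 genes of the set were higher and 3 lower, with a median of 0.027, and 1518 genes in all were lower. With limma on FPKM 10 were higher and 3 lower, with a median of 0.024. In both, the 5 higher calls were kept and VHL, PDK1 and NDRG1 were lost. Without a filter 2 of the set and 1253 genes in all were higher. The study's criteria left 2 of the set higher, 1 lower and 1081 genes in all lower. DESeq2 called 5 higher and 9 lower in the set, and removal of the GC trend gave 4 higher (2 of them among the 5) and 8 lower. With each sample left out in turn, 2 to 5 of the set were higher, 4 to 6 were lower and the median was between -0.024 and 0.0020. Over all genes, 2648 to 3424 were then called, 1148 to 1485 higher and 1500 to 1939 lower, fewest without knockdown replicate 2. Samples with the same replicate number correlated by 0.034, -0.036 and -0.016 in their deviations from the group means. Samples with different numbers correlated by -0.050 to 0.066. With 3 samples per group these values do not settle whether the numbers mark pairs. Within related pairs, 9 of 12 ratios separated the groups from counts, with a pseudocount of 0.1 and without each sample, except 11 without control replicate 2. With the replicate block, 1967 genes were higher and 2394 lower, and the set had 4 higher and 6 lower, with EGLN3 lost and no other call of the set changed, while ADPGK, PCK1, PDK2 and PDK3 of the wider lists lost theirs.

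The sign of some genes near 0 turned, none of which was called in the report, and the cause was not tested. With library size alone the log2 fold change was 0.029 for PFKP, 0.0084 for PFKFB3, 0.026 for PFKFB4, 0.043 for PKM, 0.053 for LDHB, 0.022 for ARNT, 0.013 for CA9 and 0.013 for P4HA1. With limma on FPKM it was 0.024 for PFKP, 0.0084 for PFKFB3, 0.023 for PFKFB4, 0.037 for PKM, 0.047 for LDHB, 0.016 for ARNT, 0.0070 for CA9 and 0.0085 for P4HA1. With the GC trend removed it was -0.0068 for SLC2A1, -0.011 for ALDOA, -0.0011 for PGAM1, 0.0072 for LDHB, 0.028 for HIF1A and 0.057 for P4HA1. With the length trend removed it was -0.031 for PGAM1 and 0.0095 for ARNT. LDHB was at 0.0039 with DESeq2 and 0.0036 with a mean count of at least 50. With each sample left out the ranges were -0.050 to 0.0021 for PFKP, -0.14 to 0.039 for PFKFB3, -0.082 to 0.055 for PFKFB4, -0.0089 to 0.054 for ALDOA, -0.0046 to 0.040 for PGAM1, -0.034 to 0.0067 for PKM, -0.020 to 0.012 for LDHB, -0.080 to 0.0057 for CA9, -0.010 to 0.039 for BNIP3L and -0.31 to 0.020 for ANKRD37.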

Other observations

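Outside the comparisons above, the pentose phosphate pathway, which branches off glycolysis at its first sugar phosphate and supplies NADPH and ribose, had 1 of 8 tested genes higher and 1 lower. PGD, the cytosolic 6-phosphogluconate dehydrogenase, had 212, 207 and 205 CPM in control and 238, 246 and 254 CPM in knockdown cells, a log2 fold change of 0.24 (SE 0.035, adjusted p = 0.001184, edgeR's quasi-likelihood test). H6PD, a dehydrogenase of the endoplasmic reticulum that supplies NADPH there, had 51.3, 49.1 and 45.7 CPM in control and 41.9, 39.7 and 40.0 CPM in knockdown cells, a log2 fold change of -0.26 (SE 0.053, adjusted p = 0.006307, edgeR). Both calls were made in all 15 other fits.

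Gluconeogenesis, the liver pathway that runs counter to glycolysis, had 1 of 6 tested genes higher and 2 lower. G6PC3, the broadly expressed glucose-6-phosphatase, was higher by 0.29 on the log2 scale (SE 0.038, adjusted p = 0.0007513, edgeR). PCK2, the mitochondrial phosphoenolpyruvate carboxykinase, had 21.7, 21.5 and 17.6 CPM in control and 12.7, 14.8 and 13.9 CPM in knockdown cells, a log2 fold change of -0.55 (SE 0.104, adjusted p = 0.004419, edgeR). Both calls were made in all 15 other fits. PCK1, the cytosolic form typical of liver, was lower as well (log2 fold change -2.17, SE 0.651, adjusted p = 0.03844, edgeR), but it reached at most 0.603 CPM in any sample and was called in 5 of 13 other fits.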
